A study of Caenorhabditis elegans with 2 samples.

Results

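Heterochronic genes set the order in which larval cells pass through the stages of nematode development. The 9 genes considered here, lin-14, lin-28, lin-29, lin-41, lin-42, lin-46, lin-66, hbl-1 and daf-12, are protein-coding genes of this pathway in Caenorhabditis elegans. They were taken by name, from probes that the platform annotation gives to exactly 1 gene, with probes of a gene averaged on each array. Of the 9 genes, 7 were measured on both arrays, out of 14777 genes in all. lin-14 and lin-28 had 0 such probes and are not analysed here.

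The data came from 2 arrays of 2 channels each. One channel held RNA of a reference made from mixed wild-type worms, and the other held RNA of glp-4 worms at the second larval stage, L2. The glp-4 mutation is known for leaving worms with few germ cells when they are grown warm. Preparation 1 and preparation 2 of this L2 RNA were hybridised once each. A difference between the preparations thus cannot be told apart from a difference between the arrays. Nothing says that they came from separate cultures, so a p-value here measures spread that may be purely technical. The labels name neither the glp-4 allele nor the growth temperature, the dyes or the stages pooled in the reference. Effects of genotype and of stage cannot be told apart, because the reference differs from the L2 RNA in both.

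Values are log2 ratios, read as likely glp-4 L2 over reference because the yolk protein and major sperm protein genes, which second-stage larvae do not use, lay far below 0 on both arrays. For the preparation 1 and 2 arrays, respectively, medians stood at -7.16 and -6.80 over 3 yolk genes and at -3.97 and -2.86 over 30 major sperm protein genes. Every sign below would turn if this reading were wrong. All genes together had a median of 0.10 in preparation 1 and 0.02 in preparation 2. The correlation between the arrays over 14777 genes, which share the reference RNA and are not independent replicates, was 0.53 (Pearson's r). A ratio in bulk RNA cannot tell fewer cells of a type from less RNA per cell.

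In this pathway, early larval factors are turned off in sequence by microRNAs. The microRNA lin-4 represses lin-14 and lin-28 as the first larval stage ends, relatives of let-7 repress hbl-1 around the end of the second, and let-7 itself represses lin-41 late in larval life, which frees LIN-29 to switch the epidermis to its adult state. The second larval stage is thus known as the time when lin-28 and hbl-1 activity give way, well before lin-29 acts. No microRNA is reported here.

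Taken in order of their mean ratio, 3 genes were lowest in glp-4 L2 relative to the reference. They were hbl-1, lin-66 and lin-41, with means from -1.39 to -1.02, or 38.2% to 49.1% of the reference level. daf-12 and lin-46 had smaller negative means, lin-42 differed in sign between the arrays, and lin-29 was near 0. By limma with Benjamini-Hochberg adjustment over all genes, 0 of the 7 passed the threshold of 0.05, where 1.86% of all genes did. The adjusted p of the 7 ran from 0.192 to 0.904. At an unadjusted p under 0.05 there were 3 of the 7, against 18.7% of all genes. The median of the 7 means was -0.45 (-0.70 with the first lin-42 probe alone), and that of all genes was 0.08. On the single arrays the median of the 7 was -0.71 in preparation 1 and -0.65 in preparation 2. Since the smallest absolute mean among the 275 genes past the threshold was 2.52, ratios of the size seen here lie below what this test called.

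**Figure D1:**
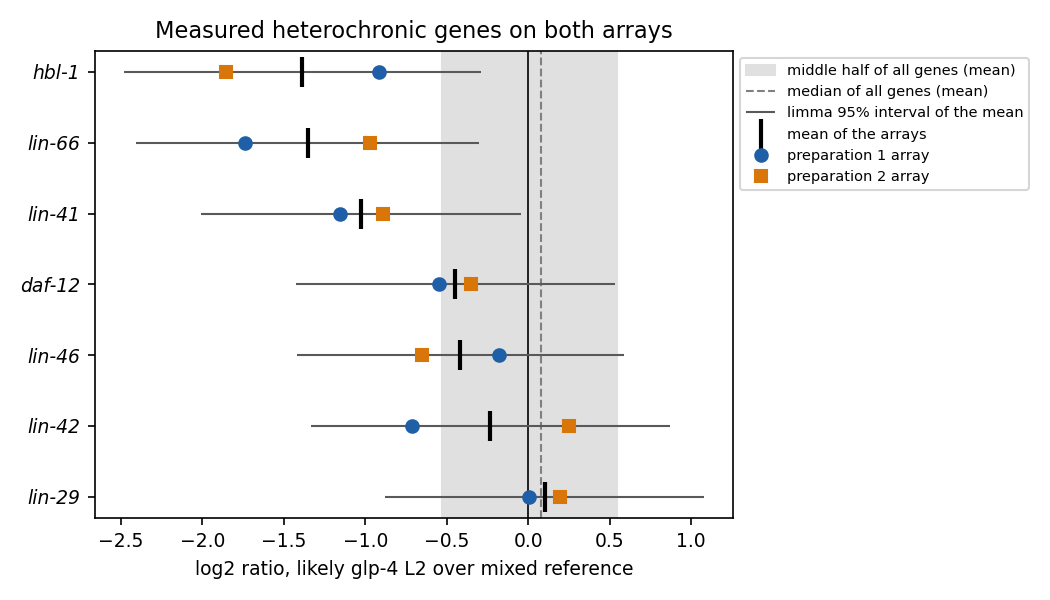
Log2 ratio (x axis) of the 7 measured heterochronic genes (y axis) on the preparation 1 array (circles) and the preparation 2 array (squares), with the mean (black tick) and the limma 95% interval of the mean (line). The grey band holds the middle 50% of all genes by mean ratio, from -0.53 to 0.55, and the dashed line is their median, 0.08. Both array values of hbl-1, lin-66 and lin-41 lie to the left of the band.

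On both arrays 5 of the 7 genes were below 0, against 30.8% of all genes. lin-42 was the 1 gene of opposite signs, against 32.2% of all genes, and lin-29 was above 0 on both. The mean was at least 2-fold lower for 3 of the 7, against 13.4% of all genes. None of the 7 was at least 2-fold lower on both arrays, where 7.35% of all genes were.

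Among the early-acting transcription factors, hbl-1 encodes a zinc-finger protein related to Drosophila Hunchback that keeps epidermal seam cells in second-stage fates. It lies on chromosome X from 5822142 to 5827755 (WBcel235, as for all positions here) and had 1 probe. Its log2 ratio was -0.92 in preparation 1 and -1.86 in preparation 2, which is 53.0% and 27.6% of the reference. Both values were low, and preparation 2 was much the lower. The mean was -1.39 ± 0.67 (SD, n = 2, limma adjusted p = 0.195), a 2.61-fold lower level, with a limma 95% interval from -2.48 to -0.29 that is not adjusted for the number of genes. On the preparation 1 array 15.4% of genes had a lower ratio than hbl-1, and on the preparation 2 array 6.79% did.

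The nuclear receptor gene daf-12, also on chromosome X (10644409 to 10666875), encodes the receptor for dafachronic acids, steroid hormones that let larvae pass from the second to the third stage instead of entering the dauer diapause. Its log2 ratio was -0.55 in preparation 1 and -0.35 in preparation 2. The arrays lay close together and both were a little below 0. The mean was -0.45 ± 0.14 (SD, n = 2, limma adjusted p = 0.562), with a 95% interval from -1.43 to 0.53 that reaches from a 2.69-fold lower to a 1.45-fold higher level. Corrected for gene span, the mean of daf-12 was -0.12. Genes of chromosome X had medians of 0.35 and 0.04 (preparations 1 and 2), above both array values of hbl-1 and of daf-12.

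Next come the proteins that act on or beside LIN-28. lin-66, on chromosome IV (13888079 to 13893986), encodes a protein that lowers lin-28 output after transcription. The lin-66 log2 ratio was -1.74 in preparation 1 and -0.97 in preparation 2, which is 30.0% and 51% of the reference. Both were low, and here preparation 1 was the lower, opposite to hbl-1. Its mean was -1.35 ± 0.54 (SD, n = 2, limma adjusted p = 0.192), a 2.56-fold lower level, with a 95% interval from -2.41 to -0.30.

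lin-46, on chromosome V (12968855 to 12970730), encodes a protein related to gephyrin that acts downstream of LIN-28 and opposes HBL-1 activity. Its log2 ratio was -0.18 in preparation 1 and -0.65 in preparation 2, which is 88.2% and 63.6% of the reference. Both values were below 0 and well inside the range of most genes. The mean was -0.42 ± 0.33 (SD, n = 2, limma adjusted p = 0.597), with a 95% interval from -1.42 to 0.59.

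Of the late-acting pair, lin-41 encodes an RNA-binding protein of the TRIM-NHL family that holds back adult fates until let-7 represses it, and that also controls oocyte growth. It lies on chromosome I from 9334800 to 9342496. The lin-41 log2 ratio was -1.16 in preparation 1 and -0.89 in preparation 2, which is 44.9% and 53.8% of the reference. The arrays were close, with a difference of 0.26 that only 22.6% of genes undercut. The mean was -1.02 ± 0.18 (SD, n = 2, limma adjusted p = 0.254), with a 95% interval from -2.01 to -0.04.

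lin-29, on chromosome II (11917643 to 11935340), encodes the zinc-finger transcription factor of the larva-to-adult switch. Its log2 ratio was 0.01 in preparation 1 and 0.19 in preparation 2, which is 100.5% and 114.4% of the reference. Both values sat next to 0 and close to each other. The mean was 0.10 ± 0.13 (SD, n = 2, limma adjusted p = 0.904), and the 95% interval from -0.88 to 1.08 leaves room for differences of up to 1.84-fold lower or 2.11-fold higher. RefSeq lists 12 transcripts of lin-29, and 1 probe cannot separate them.

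lin-42, on chromosome II (1233236 to 1252359), encodes the worm relative of the circadian protein Period, and its RNA is known to rise and fall with each molt. It was the only one of the 7 with 2 probes. The probe that the annotation ties to RefSeq transcripts read -0.86 in preparation 1 and -0.54 in preparation 2. The other lin-42 probe, which has no accession, read -0.57 in preparation 1 and 1.04 in preparation 2. The probes were 0.29 apart on the first array and 1.59 apart on the second, where only that probe was above 0. Over the 1345 genes with 2 probes the median distance was 0.31 and 0.63, and 14.2% of them were farther apart than lin-42 on the preparation 2 array.

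Averaged over its probes, the lin-42 log2 ratio was -0.71 in preparation 1 and 0.25 in preparation 2. The mean was -0.23 ± 0.68 (SD, n = 2, limma adjusted p = 0.794). No direction can be given for lin-42. The first probe alone gave -0.70, and correction for gene span gave 0.07. The annotation does not state which part of the gene each probe covers, and RefSeq lists 7 transcripts of it.

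**Figure D2:**
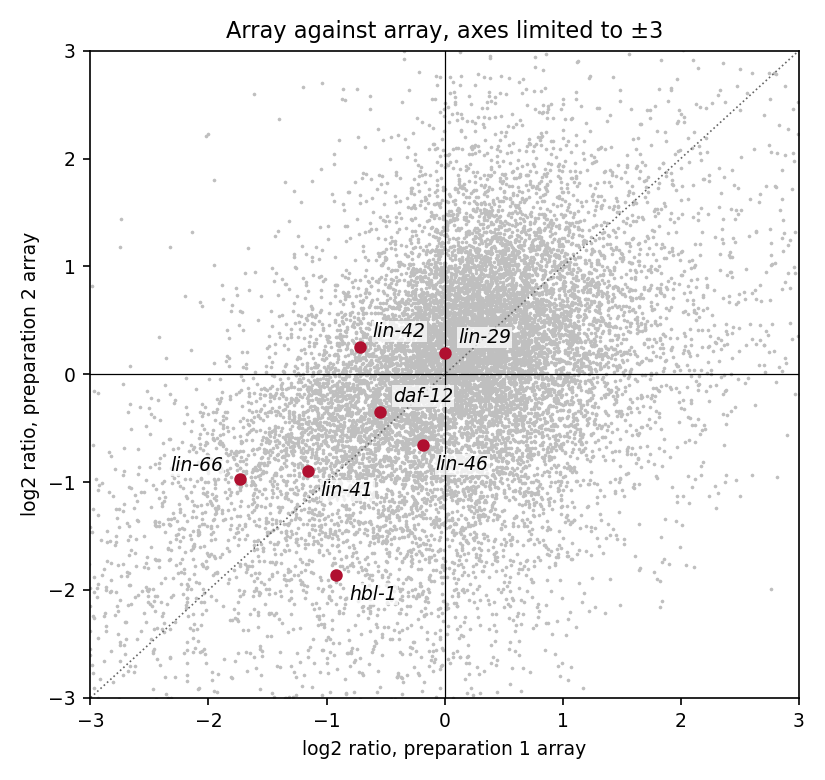
Log2 ratio on the preparation 1 array (x axis) against that on the preparation 2 array (y axis), with all genes in grey and the 7 heterochronic genes in red. The dotted line marks equal values, and 560 genes lie outside the axes. hbl-1 lies below the line, lin-66 and lin-42 lie above it, and lin-41, daf-12 and lin-29 lie near it.

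The order of the genes was firm only in part. From lowest to highest mean it ran hbl-1, lin-66, lin-41, daf-12, lin-46, lin-42 and lin-29. Neighbours in this order overlapped in their array values, with the exception of lin-41 and daf-12, whose ranges were 0.35 apart. daf-12 exceeded lin-41 by 0.61 in preparation 1 and by 0.55 in preparation 2. The gap between hbl-1 and lin-66 was 0.03, and these genes changed places between the arrays. Differences between arrays ran from 0.19 to 0.96 over the 7 genes, with a median of 0.63 over all genes.

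Most of the heterochronic genes are long. Of the 7, 6 lay among the 3676 genes with the longest spans, with lin-46 the exception at 1876 base pairs. That longest class had a median ratio of 0.13 in preparation 1 and -0.31 in preparation 2, and the shortest class had 0.01 and 0.30. hbl-1, lin-66 and lin-41 were below the median of their class on both arrays, and lin-29 was below it in preparation 1 and above it in preparation 2. Span-corrected means were -1.31 for hbl-1, -1.27 for lin-66, -0.89 for lin-41 and 0.39 for lin-29, the last farther above 0 than its uncorrected 0.10.

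**Figure D3:**
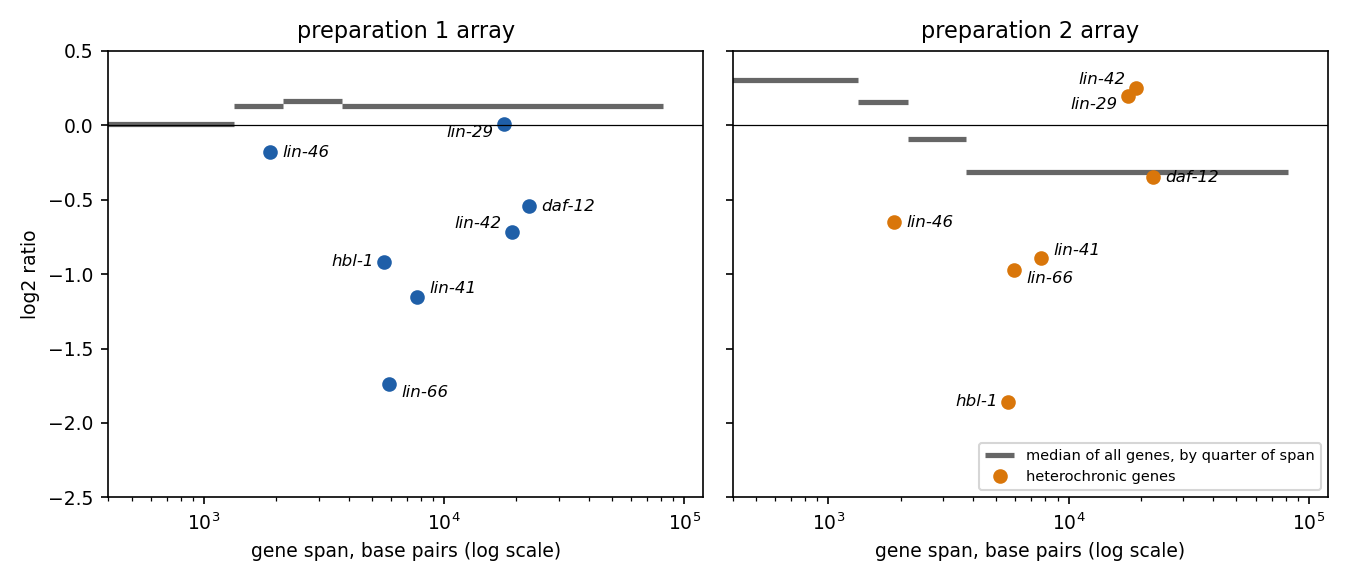
Log2 ratio (y axis) against gene span in base pairs (x axis, log scale) for the 7 heterochronic genes on the preparation 1 array (left) and the preparation 2 array (right). Grey bars are the medians of all genes in 4 classes of span with about equal numbers of genes. In the longest class the bar is at 0.13 on the left and at -0.31 on the right.

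Among genes with a gene name, not a sequence name, those nearest to hbl-1 in their 2 array values were hcp-4, apr-1 and ndc-80. Their distances were 0.05, 0.08 and 0.09 log2 units over the 2 arrays. Of all genes, sequence names included, 55, or 0.372%, lay within 0.25 of hbl-1. For lin-29 the nearest with a gene name were fbxc-14, nep-3 and chil-2, and 832 of all genes, or 5.63%, lay within 0.25. With 2 arrays such a distance describes 2 values only.

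Other regulators of developmental time showed the arrays going apart. This list holds timing factors such as the casein kinase gene kin-20 and the molting regulators nhr-23, nhr-25 and blmp-1. Of its 12 measured genes, 0 were lower and 0 were higher past the limma threshold, where 1.86% of all genes passed. At an unadjusted p under 0.05 by limma there were 0, against 18.7% of all genes. The list had a median of 0.29 in preparation 1 and -0.52 in preparation 2. Opposite signs were found for 9 of the 12 genes, against 32.2% of all genes and 12 of 14 neuron markers. kin-20, the partner of lin-42 in worms as its relative is of Period in flies, was at 1.14 in preparation 1 and -1.94 in preparation 2. The largest means were those of the nuclear receptor gene nhr-85 (-0.82 ± 0.57, limma adjusted p = 0.354) and the RNA-binding protein gene puf-9 (-0.77 ± 0.69, limma adjusted p = 0.393; SD, n = 2 for both).

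The microRNA pathway list holds the machinery through which lin-4 and let-7 act. Of 16 measured genes, 2 were lower past the limma threshold, 0 were higher and 14 did not pass, where 1.86% of all genes passed. cgh-1, which encodes a DEAD-box helicase of silencing complexes and of germ granules, was at -3.64 and -4.27 (mean -3.95 ± 0.44, SD, n = 2, limma adjusted p = 0.0257). pup-2, whose poly(U) polymerase works with LIN-28 on the let-7 precursor, was at -2.56 and -3.72 (mean -3.14 ± 0.82, SD, n = 2, limma adjusted p = 0.0453). Both of these were low on both arrays. pup-2 did not pass with log2 ratios limited to 5, with the first of 2 probes (median of more) or with a variance trend.

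The microRNA Argonaute genes went apart between the arrays. alg-1 was at 1.34 in preparation 1 and -0.58 in preparation 2, and alg-2 was at 0.97 and -1.08. The processing enzyme genes drsh-1 (Drosha) and dcr-1 (Dicer) were below 0 on both arrays, with means of -1.14 ± 0.43 and -0.93 ± 0.17 (SD, n = 2, limma adjusted p = 0.235 and 0.284). This list had a median of 0.10 in preparation 1 and -1.01 in preparation 2, and 11 of 16 genes had opposite signs, against 32.2% of all genes.

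The next list holds genes that make the DAF-12 hormone or work with the receptor. Of 11 measured genes, 0 passed the limma threshold over all genes, and 6 had an unadjusted p under 0.05, against 18.7% of all genes. The unadjusted count was 4 of 16 in the microRNA pathway list. Among the lists that follow, it was 5 of 16 seam cell regulators, 1 of 9 later cuticle genes and 5 of 7 LIN-41 targets. On both arrays 6 of the 11 were above 0, as were 5463 of all 14777 genes, and 2 were below. Their median was 0.67 in preparation 1 and 0.39 in preparation 2. daf-36, which encodes the oxygenase that opens dafachronic acid synthesis, was at 2.21 and 2.19 (mean 2.20 ± 0.01, SD, n = 2, limma adjusted p = 0.0638). ncr-2, a relative of the Niemann-Pick cholesterol transporter gene, was at 2.06 and 2.19 (mean 2.12 ± 0.09, SD, n = 2, limma adjusted p = 0.0678). These values agreed closely between the arrays, and both genes passed the threshold after quantile normalization or span correction.

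Its other members went both ways. daf-9, the cytochrome P450 gene of the last step of that synthesis, was at 1.30 in preparation 1 and 0.81 in preparation 2 (limma adjusted p = 0.253). The receptor genes nhr-8 and nhr-48, the closest relatives of daf-12, had opposite signs, with means of 1.31 ± 0.39 and -1.24 ± 0.29 (SD, n = 2, limma adjusted p = 0.192 and 0.200). ncr-1 was at -1.73 and -1.07, below 0 on both arrays, unlike ncr-2.

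**Figure D4:**
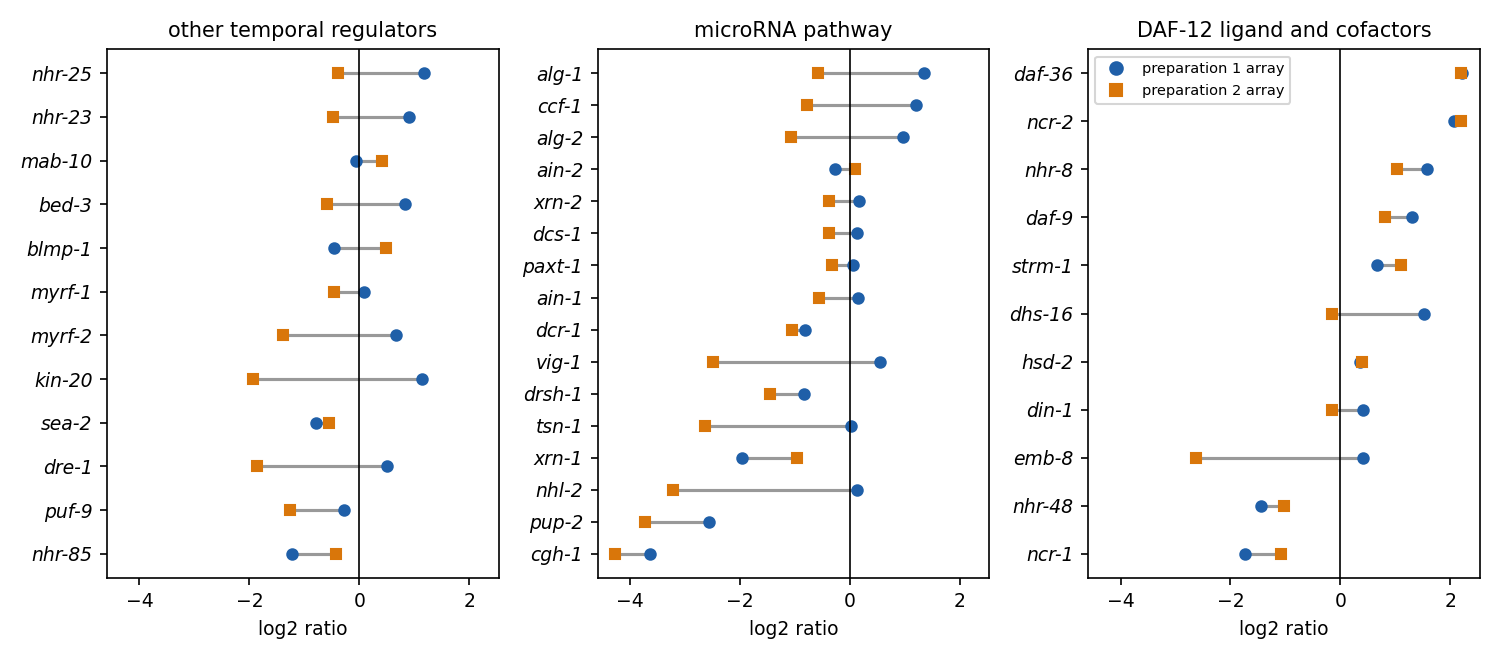
Log2 ratio (x axis) of each measured gene of the other temporal regulators (left), the microRNA pathway (middle) and the DAF-12 ligand and cofactor list (right), on the preparation 1 array (circles) and the preparation 2 array (squares), joined by a line. Opposite signs were found for 9 of 12, 11 of 16 and 3 of 11 genes, against 32.2% of all genes.

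Downstream of the pathway, seam cells and the cuticle are the tissues whose timing it sets. For the counts here, 1.86% of all genes passed the limma threshold. Of 16 seam cell regulators, 1 was higher, 0 were lower and 15 did not pass. It was the nuclear receptor gene nhr-73, at 3.08 and 3.24 (mean 3.16 ± 0.12, SD, n = 2, limma adjusted p = 0.0335), which did not pass with a variance trend. The medians of the list were 0.08 in preparation 1 and -0.28 in preparation 2. Of 9 genes for the cuticle of the fourth larval stage and the adult, 1 was lower and 8 did not pass. That gene was col-19, the adult collagen gene that LIN-29 activates, at -3.28 and -3.10 (mean -3.19 ± 0.13, SD, n = 2, limma adjusted p = 0.0325). The other 8 had means from -0.35 to 0.60.

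Of 7 measured genes listed as targets of LIN-41, 2 passed as lower, 0 as higher and 5 in neither direction, where 1.86% of all genes passed. The medians of the list were -1.77 in preparation 1 and -1.64 in preparation 2. The 2 that passed were spn-4, a maternal RNA-binding protein gene, and zif-1, which encodes a ubiquitin ligase adaptor of the early embryo. Their means were -4.51 ± 0.46 and -2.72 ± 0.05 (SD, n = 2, limma adjusted p = 0.0231 and 0.0437). zif-1 did not pass with log2 ratios limited to 5 or with a variance trend. Both belong to the oocyte side of LIN-41. The somatic targets mab-10, a cofactor gene of lin-29, and dmd-3, of the male tail tip, were at 0.17 ± 0.33 and 0.57 ± 0.21 (SD, n = 2, limma adjusted p = 0.833 and 0.469).

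Markers of the germ line were also measured, since mixed wild-type worms can hold more germ cells than glp-4 larvae. Of 15 germ cell markers 4 were lower past the limma threshold and 13 were below 0 on both arrays, with means from -3.11 to -0.61 and a median of -1.82. Of 13 oocyte and maternal markers 11 were lower and all 13 were below 0 on both arrays. Their means ran from -5.45 to -1.85, with a median of -3.90. Of all genes, 1.86% passed the threshold in either direction and 30.8% were below 0 on both arrays. By limma, 11 of the 15 germ cell markers and all 13 oocyte and maternal markers had an unadjusted p under 0.05, against 18.7% of all genes. lin-41 and pup-2 are known to act in germ cells as well, and the part of germ cell content in their ratios was not tested. The means of hbl-1, lin-66 and lin-41 lay inside the wide range of the germ cell marker means and above the whole range of the oocyte markers. A mean at least 2-fold lower, as these 3 genes had, was found for 13.4% of all genes. Germ cell content was not tested for hbl-1 and lin-66 either. Ratios do not show which of these markers are at 0.

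Markers of other tissues seldom passed, where 1.86% of all genes did. Of 13 hypodermis markers 0 did, with medians of 1.20 in preparation 1 and 0.14 in preparation 2. Of 14 neuron markers 0 passed, with medians of 0.27 and -0.79 and opposite signs for 12, against 32.2% of all genes. The medians of 11 early embryo markers were -0.23 and 0.52, and 0 passed. At an unadjusted p under 0.05 by limma there were 4 hypodermis, 0 neuron and 1 early embryo markers, against 18.7% of all genes. Of 11 intestine markers 1 was higher, the peptide transporter gene pept-1, and 5 had an unadjusted p under 0.05. Their medians were 1.66 in preparation 1 and 0.70 in preparation 2, and 7 were above 0 on both arrays, as were 5463 of all 14777 genes. Of 8 body muscle markers 0 passed and 3 had an unadjusted p under 0.05, with medians of 1.38 and -0.13. Their largest means went opposite ways, -2.13 ± 0.34 for unc-54 and 1.72 ± 0.02 for unc-27 (SD, n = 2).

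**Figure D5:**
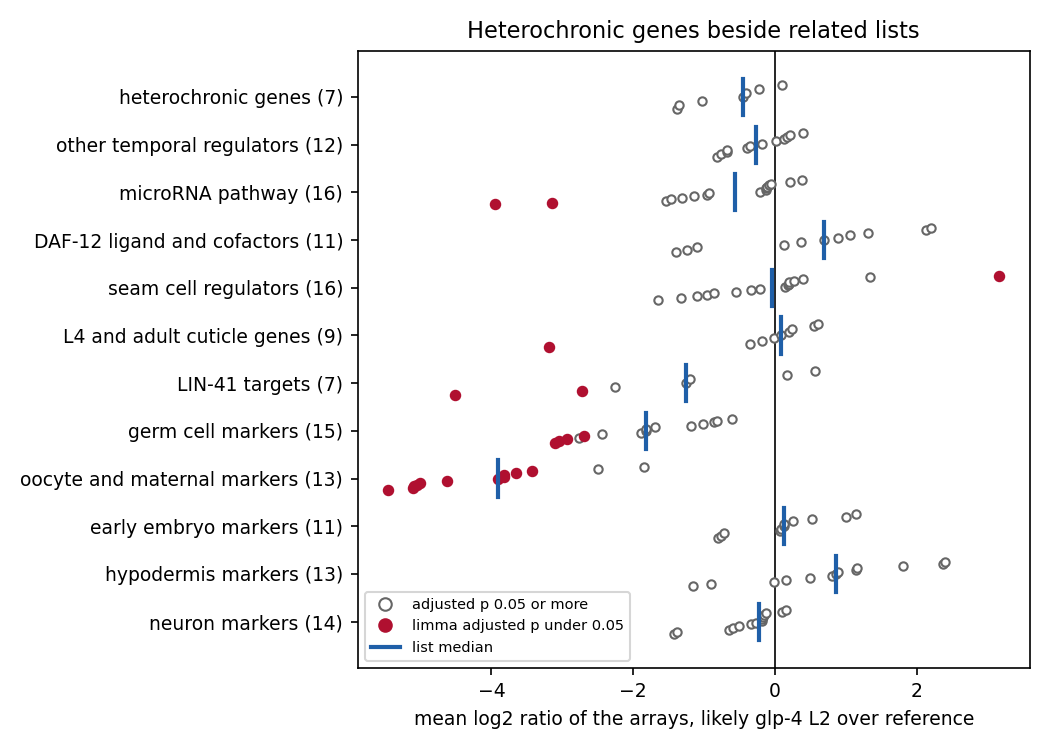
Mean log2 ratio of the 2 arrays (x axis) for each measured gene of the heterochronic list and 11 related lists (y axis, with the number of genes measured). Filled points passed the limma threshold over all genes, open points did not, and blue bars are list medians. The 7 heterochronic genes are all open, with a median of -0.45, and filled points gather in the oocyte and maternal list.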

How the data were processed

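Two-colour arrays of glp-4 L2 RNA against a mixed wild-type reference were analysed. The authors deposited 1 log2 ratio per probe and array. The base was read from the values: taken as powers of 2, they fell on steps of 0.001, to a tolerance of 0.002 steps, in 99.1% (preparation 1) and 98.8% (preparation 2) of cases. No source used here states the scanner, background correction or scaling. Without intensities, signal over background is unknown, and the number of arrays limits the precision. Of 21632 probes, 16450 had 1 gene in GEO's platform annotation. Symbols were updated by Entrez ID through RefSeq (WBcel235), which held 16360 of these probes.

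Values were used as deposited. Each gene's mean entered a test against 0 in limma 3.58.1 under R 4.3.3 (intercept, eBayes, Benjamini-Hochberg over 14777 genes, threshold 0.05), with 1 residual degree of freedom and a prior of 4.52. The reference is 1 control RNA, so the test leaves out its own spread, and a dye bias, if any, was not removed. A simulation was also run, with independent arrays and variances drawn from the fitted prior. It cannot address technical replicates, the shared reference or dye bias, and no result here rests on it. Alternatives were centring, quantile normalization, limiting ratios to 5, and the first of 2 probes or the median of more. Further ones were robust and trended variance, correction for gene span, probes of several genes, and each preparation alone.

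All 9 genes are named. From other lists the rule took up to 4 genes past the threshold, or the 2 largest means where none passed. Those it took from the yolk, sperm, germ cell, oocyte, early embryo, hypodermis and neuron lists are not named in the text. Other genes in the text were chosen after their values were seen. The members and lists were chosen with earlier results of these data known. No sequences are printed.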

Additional observations from a re-analysis of the deposited data

How the results depend on the processing

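By limma, 0 of the 7 heterochronic genes passed in any of the 8 alternatives with a test. There the limma adjusted p of hbl-1, the gene of lowest mean, ran from 0.138 to 0.251, and that of lin-66 from 0.157 to 0.251. hbl-1, lin-66, lin-41, daf-12, lin-46 and lin-29 kept their sign in all 10 alternatives, each preparation alone included. lin-42 turned to 0.073 with span correction, and was at -0.71 without replicate 2 and 0.25 without replicate 1. The count of genes past the threshold was 467 with centred arrays, 605 with quantile normalization, 620 with span correction, 140 with ratios limited to 5 and 118 with a variance trend, all 118 lower, against 275. Of the related lists from timing factors to LIN-41 targets, 6 genes passed, and 3 with a variance trend. List medians that turned were those of other temporal regulators (-0.52 without replicate 1, 0.29 without replicate 2), the microRNA pathway (-1.01 and 0.10), seam cell regulators (-0.28 and 0.084, and 0.072 with span correction) and later cuticle genes (-0.0018 with span correction). The median of the 7 heterochronic genes stayed below 0, from -0.71 without replicate 2 to -0.45. The cause was not tested. A single preparation leaves no residual degrees of freedom, so these values have no test and no counts. Background correction, a filter on dim probes and slide as a block were not run, because no intensities or slide columns were used. No paired analysis was possible because there is 1 group.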
